A study of Mus musculus with 48 samples.

Results

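The integrated stress response and serine synthesis genes described here are 10 genes: Atf4, Ddit3, Trib3, Ddit4, Sesn2, Chac1, Asns, Phgdh, Psat1 and Psph. They were chosen by symbol from the 55487 genes of the deposited expression table. All 10 were among the 20209 genes that reached at least 1 TPM in at least 3 libraries and were tested. A second row with the symbol Ddit3 was listed at 0 in every library and was not used.

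In the integrated stress response, kinases that sense misfolded protein, lack of amino acids, viral RNA or lack of heme phosphorylate the translation factor eIF2, which slows most protein synthesis while the transcription factor ATF4 is made more efficiently. ATF4 then raises genes for amino acid supply, among them the serine synthesis enzymes and asparagine synthetase, and genes that feed back on stress signalling. Because ATF4 is controlled largely at translation, the level of its transcript is an incomplete readout of its activity. Mammary epithelium secretes large amounts of protein when it makes milk and draws on amino acid supply to do so.

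The series holds 48 RNA-seq libraries of mouse thoracic mammary glands, in 16 groups of 3. All mice carried MMTV-rtTA, a doxycycline-dependent activator driven by the mammary tumour virus promoter. In MMTV-rtTA/tet-op-Esr1 mice the activator switches on Esr1, which encodes estrogen receptor alpha, and in MMTV-rtTA/tet-op-CYP19A1 mice it switches on CYP19A1, the gene of aromatase, which converts androgens to estrogens. In each model, glands without induction were taken at 12, 18 and 24 months of age. Glands after 1 week of induction were taken at 12 and 18 months, after 6 or 12 months of induction at 24 months, and after 18 months of induction at 30 months. There was no group on doxycycline without a responder transgene and no uninduced group at 30 months. The drug and the transgene, the mouse line and the model, and at 30 months the age and the longer induction, cannot be told apart. Libraries are titled as biological replicates, each with its own identifier, but no label says in words that each is from a separate mouse. The p-values rest on how far such libraries differ within groups. Titles of the 24- and 30-month libraries are built differently from those at 12 and 18 months, and a batch with that boundary cannot be told apart from age.

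The deposited values are TPM, transcript abundances per transcript length that sum to 1 fixed total per library, so the depth of a library is unknown. Ribosomal RNA rows took from 0.0159% to 67.2% of that total (median 0.0752%) and over 10% in 9 libraries. Those 9 libraries include all 3 CYP19A1 glands at 12 months with 1 week of induction and 2 of the 3 uninduced CYP19A1 glands at 12 months. TPM were therefore divided by a factor per library, the median of ratios over 13696 protein-coding genes (0.315 to 1.41), and are called rescaled TPM below. Transcripts of white adipocytes (Adipoq 162 to 798 rescaled TPM), luminal epithelium (Krt8 21.2 to 121) and basal cells (Krt14 5.52 to 49.5) were present in every library. Skeletal muscle transcripts were present too and varied widely (Ckm 32.7 to 10035). In the Esr1 model the Esr1 transcript lay between 7.38 and 19.4 rescaled TPM without induction, 7.91 and 22.7 after 1 week, and 5.91 and 16.6 after long induction, so it did not separate the libraries labelled as induced. The human CYP19A1 transcript is not analysed here, and groups are named by their labels. In whole glands, fewer cells of a type and less RNA per cell cannot be told apart.

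Atf4 was the most abundant of the 10 transcripts in most groups. Its group means spanned 0.56 on the log2(rescaled TPM + 1) scale, the narrowest range of the 10 on that scale. Atf4 lay between 28.4 and 55.7 rescaled TPM over the 48 libraries (median 43.2). Phgdh, the first enzyme of serine synthesis, followed with 14.6 to 92.9 (median 27.0), Psat1, the aminotransferase of the next step, with 6.04 to 39.2 (13.9), and Psph, the phosphatase that releases serine, with 3.12 to 12.1 (6.64). Asns, asparagine synthetase, ranged from 8.13 to 35.1 (13.4), and Ddit3, which encodes the stress transcription factor CHOP, from 6.99 to 18.2 (10.9). The less abundant transcripts were Ddit4, an inhibitor of mTORC1 signalling (2.37 to 25.4, median 5.13), Chac1, a glutathione-degrading enzyme (0.771 to 23.3, median 4.78), Sesn2, a leucine sensor that restrains mTORC1 (1.06 to 6.50, median 2.98), and Trib3, a pseudokinase that inhibits ATF4 (0.813 to 3.88, median 1.96). No library had any of the 10 at 0. In mm10 with GENCODE M21, Phgdh lies at chr3:98313170-98339990, Psph at chr5:129765558-129787449 and Ddit4 at chr10:59949669-59951834, all on the minus strand, and Chac1 at chr2:119351229-119354381 on the plus strand. Chac1 varied most within groups, with a pooled SD of 0.78 on the log2(rescaled TPM + 1) scale, against 0.18 for Atf4.

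The genes of the set whose promoters carry a C/EBP-ATF response element, the DNA element through which ATF4 acts with C/EBP partners, are shown because ATF4 control is what links the set. The element was searched on both strands as TGATGNAA from 250 bases before to 50 bases after each gene start in RefSeq promoters (GRCm38.p6). It was found in 3 of the 10 genes, or 3 of their 11 promoter windows, and in 1304 of all 32851 promoter windows (3.97%). In the stretches below, printed on the strand of the gene, capitals mark the match.
Asns, chr6:7693210-7693272, minus strand: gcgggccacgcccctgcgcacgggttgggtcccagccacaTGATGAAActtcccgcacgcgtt
Chac1, chr2:119351009-119351096, plus strand: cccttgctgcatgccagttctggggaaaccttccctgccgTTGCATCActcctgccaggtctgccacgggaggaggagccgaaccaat
Trib3, chr2:152344028-152344057, minus strand: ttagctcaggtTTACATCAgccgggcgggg
The match begins 23 bases before the start in Asns, 193 bases before it in Chac1 and 14 bases after it in Trib3. In Chac1 and Trib3 it lies on the opposite strand. A match is a string of letters, not evidence of binding, and the other genes may hold elements outside this window or spelled otherwise.

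Among the serine synthesis genes, Phgdh differed most between group means. In uninduced Esr1 glands Phgdh was 19, 31.8 and 15.1 rescaled TPM at 12 months, 29.8, 30.9 and 14.6 at 18 months, and 48.7, 49.0 and 92.9 at 24 months. All 3 glands of 24 months lay above all 3 of 12 months and all 3 of 18 months. At 24 months the level was also high with induction, at 52.4, 50.2 and 84.4 after 6 months and 46.3, 81.6 and 58.4 after 12 months. The gland at 84.4 is rich in ribosomal RNA (33.4%). At 30 months after 18 months of induction Phgdh was 18.0, 23.6 and 34.2, below every Esr1 gland of 24 months. In CYP19A1 glands no such step was present. Group means there ran from 18.5 ± 4.01 (18 months, 1 week; SD, n = 3) to 34.1 ± 11.6 (12 months, 1 week), with 31.4 ± 11.3 in uninduced glands of 24 months. Over all groups, the 9 Esr1 glands of 24 months had Phgdh at 46.3 to 92.9 (median 52.4) and the other 39 libraries at 14.6 to 48.6 (median 24.4), and 1 of those 39, an uninduced CYP19A1 gland of 18 months rich in ribosomal RNA, reached the lowest of the 9. On deposited TPM the 9 glands had Phgdh at 42.9 to 93.2 and the other 39 libraries at 9.64 to 60.3, so the ranges overlapped more. This grouping of 9 against 39 was made after the values were seen and carries no test.

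**Figure D1:**
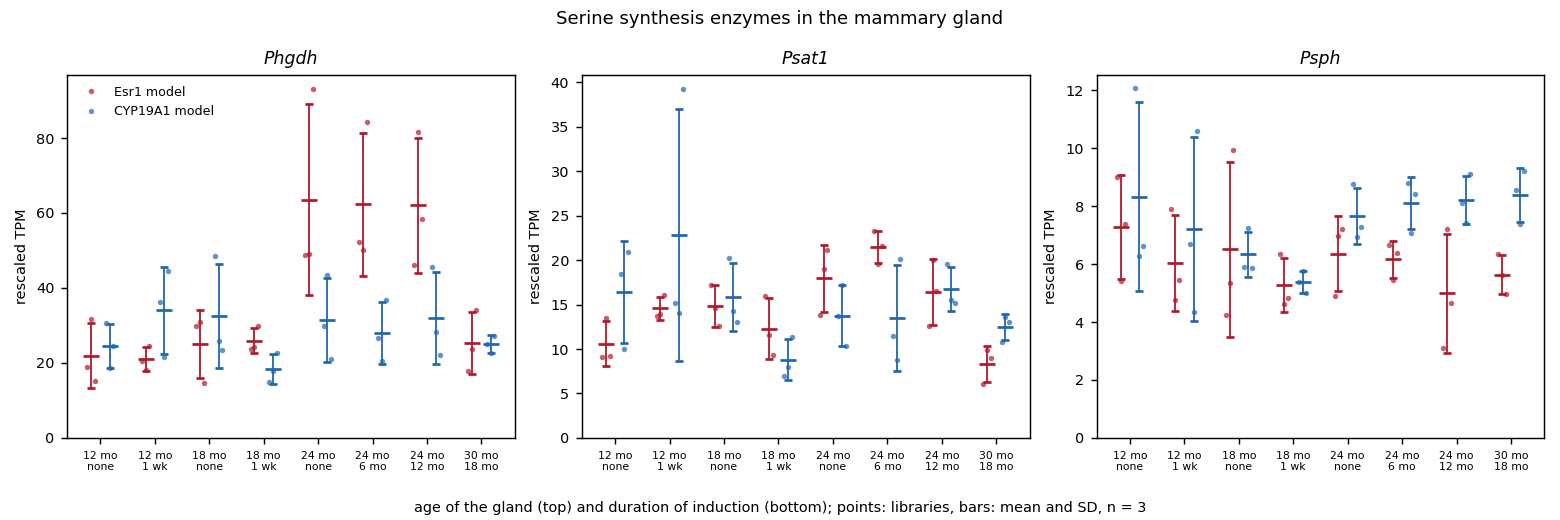
Rescaled TPM (y axis, linear) of Phgdh, Psat1 and Psph in the 16 groups, ordered by age and duration of induction (x axis), with points for single libraries and bars for the mean and SD of 3 libraries. Phgdh in the Esr1 model stands at group means of 62.1 to 63.5 in the 3 groups of 24 months and at 21.0 to 25.9 in its other groups.

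Psat1 and Psph did not follow Phgdh in the same way. Psat1 in uninduced Esr1 glands was 9.07, 13.5 and 9.20 rescaled TPM at 12 months and 13.8, 19 and 21.1 at 24 months. It was 6.04, 9.84 and 9.01 at 30 months after 18 months of induction, the lowest group mean of this gene (8.30 ± 2.00, SD, n = 3). Psat1 thus lay higher at 24 than at 12 months without overlap of the groups, as Phgdh did, but its 24-month values overlapped those of several CYP19A1 groups. Psph in uninduced Esr1 glands was 9.01, 5.43 and 7.37 at 12 months and 4.88, 6.98 and 7.22 at 24 months, and these groups overlapped.

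The stress response genes differed in which libraries were high. Ddit4 was highest in Esr1 glands after 12 months of induction, at 21.8, 11.5 and 15.6 rescaled TPM, and in single CYP19A1 glands of 18 months, 22.3 in 1 of 3 uninduced and 25.4 in 1 of 3 after 1 week. The other glands of those CYP19A1 groups were at 4.50 to 7.94, so their group means rest on 1 library each. Chac1 was low in all Esr1 glands of 12 months (0.899 to 3.38) and reached 23.3 in 1 Esr1 gland of 30 months and 22.1 in 1 after 12 months of induction. Chac1 also had groups with 1 high library, such as uninduced Esr1 glands of 18 months (1.32, 1.73 and 14.8). Sesn2 group means lay between 2.24 and 4.64, and those of Asns between 10.8 and 20.4. The highest Asns mean, in uninduced CYP19A1 glands of 18 months, rests on 1 library at 35.1. That library is rich in ribosomal RNA (40.3%) and is also the one with Ddit4 at 22.3. Atf4 group means ran only from 34.2 ± 5.55 (uninduced CYP19A1, 12 months) to 50.5 ± 1.36 (Esr1, 30 months; SD, n = 3).

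**Figure D2:**
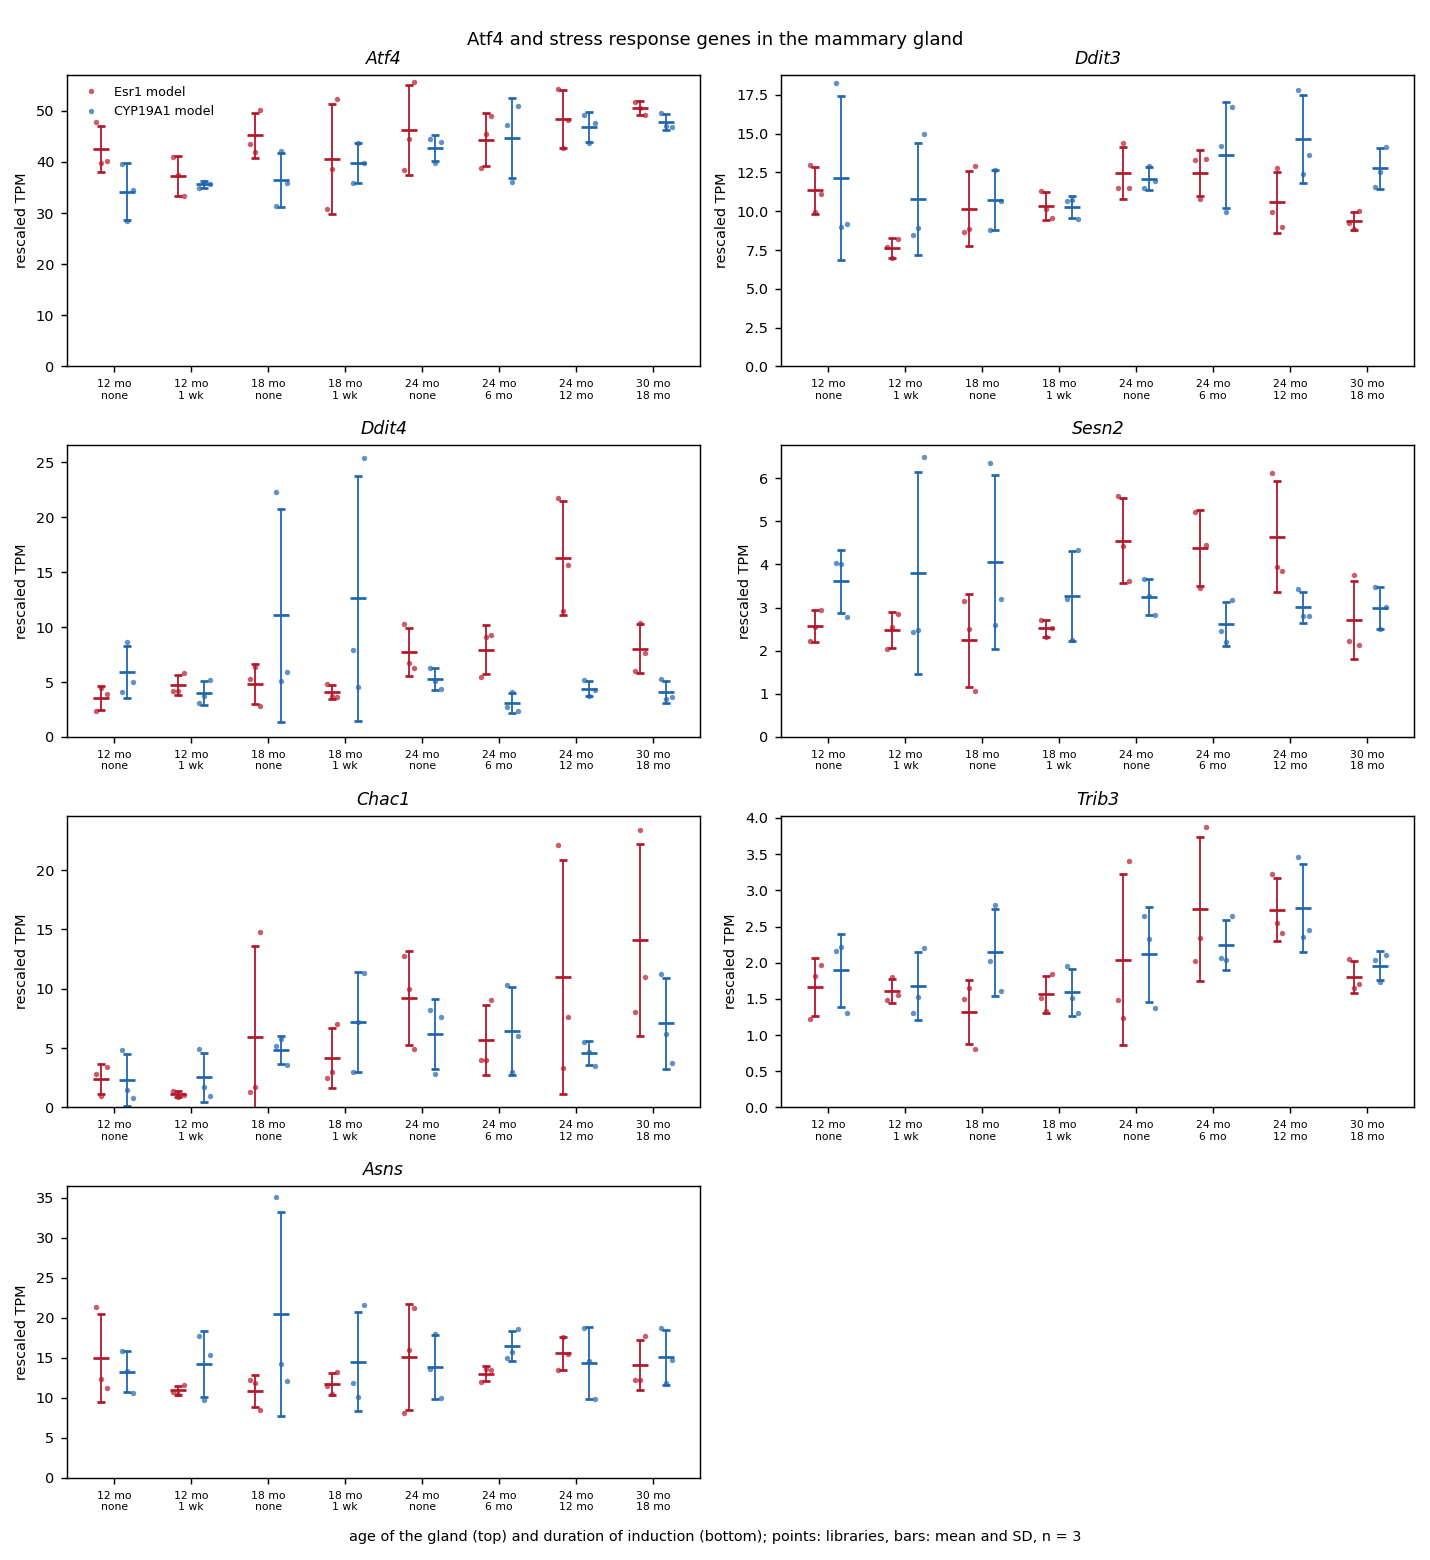
Rescaled TPM (y axes, linear, scaled to each gene) of Atf4, Ddit3, Ddit4, Sesn2, Chac1, Trib3 and Asns in the 16 groups, with points for single libraries and bars for the mean and SD of 3 libraries; a bar that would reach below 0 is cut at 0. Ddit4 in the 3 long-induced groups lies higher in every Esr1 library than in every CYP19A1 library of the same group. How many other genes do so was not computed. In CYP19A1 glands of 18 months the high Ddit4 means rest on 1 library each (22.3 and 25.4).

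Differences were tested with limma on log2(rescaled TPM + 1), with 1 mean per group fitted to all 48 libraries, two-sided. Passing means an adjusted p under 0.05 (Benjamini-Hochberg, over the 20209 genes of a comparison). A log2 difference on this scale understates the change of scarce genes. In all, 23 comparisons were made, and in 19 of them 0 of the 10 genes passed.

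The first comparisons ask whether switching on either transgene changes the stress and serine genes. In Esr1 glands, 0 of the 10 genes passed in limma after 1 week at 12 or 18 months, or after 6 or 12 months at 24 months, and 0% of all genes passed in each. At an unadjusted p under 0.05 there were 1, 0, 0 and 1 of the 10, against 8.83%, 2%, 2.68% and 2.78% of all genes. The first was Ddit3, at 7.68, 6.99 and 8.23 rescaled TPM after 1 week against 13.0, 9.97 and 11.1 without induction at 12 months, a log2 difference of -0.51 ± 0.20 (SE, adjusted p = 0.536). The other was Ddit4 after 12 months, at the values given above against 10.3, 6.75 and 6.29 without induction, a log2 difference of 0.96 ± 0.40 (SE, adjusted p = 1). In both cases the groups did not overlap, as for 6.99% of all genes that lay lower in the first comparison and 2.61% that lay higher in the other. Psat1 lay higher after 1 week at 12 months without overlap (0.45 ± 0.30), as did 7.8% of all genes.

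In CYP19A1 glands, 0 of the 10 genes passed in limma in any of the 4 induction comparisons. Over all genes 0% passed in 3 of them and 0.0148% after 12 months. At an unadjusted p under 0.05 there were 2 of the 10, both after 1 week at 18 months, where 3.41% of all genes lay under it. Against 0 of the 10 genes in the other comparisons, 7.3% of all genes lay under it after 1 week at 12 months, 2.04% after 6 months and 1.69% after 12 months. Psat1 was 7.02, 7.99 and 11.4 after 1 week against 20.2, 14.3 and 13.0 without it (-0.78 ± 0.30, SE, adjusted p = 1). Phgdh was 14.8, 17.8 and 22.8 against 48.6, 25.8 and 23.4 (-0.73 ± 0.34, SE, adjusted p = 1). Both, and Psph (-0.20 ± 0.25), were lower without overlap of the groups, as were 5.03% of all genes. Ddit4 lay lower without overlap after 6 months (-0.63 ± 0.40, SE), as did 4.04% of all genes. The gland with Phgdh at 48.6 is rich in ribosomal RNA.

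Averaged over the 4 induction comparisons of a model, the 10 genes differed by -0.29 to 0.30 on the log2 scale in Esr1 glands and by -0.29 to 0.09 in CYP19A1 glands, and 0 passed in either, nor at an unadjusted p under 0.05 (6.5% and 2.27% of all genes). For Atf4 itself, the 8 differences ran from -0.19 to 0.13, and their 95% intervals from -0.49 to 0.43. The difference between the models in the response was also tested. In limma 0 of the 10 genes and 0% of all genes passed, for 1 week or for long induction, and 0 of the 10 lay at an unadjusted p under 0.05 (7.35% and 2.29% of all genes). The largest of these in size was Ddit4 after long induction, -0.91 with a 95% interval from -1.91 to 0.08 (adjusted p = 1).

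Age was compared in uninduced glands. In the Esr1 model Phgdh rose from 12 to 24 months, by 1.49 ± 0.34 on the log2 scale (SE, limma adjusted p = 0.0155), a 2.81-fold ratio of (rescaled TPM + 1). The mean was 22.0 ± 8.71 rescaled TPM at 12 months and 63.5 ± 25.5 at 24 months (SD, n = 3). It was the 1 of 10 genes that passed, against 1.81% of all genes in either direction and 0.826% upward. At an unadjusted p under 0.05 there were 5 of the 10, against 15.7% of all genes. The 24-month gland with Phgdh at 92.9 had a summed level of 6 milk protein genes of 30946 rescaled TPM, and the other two had 63.5 and 38.8. Chac1 (1.60 ± 0.62), Ddit4 (0.95 ± 0.40), Psat1 (0.71 ± 0.30) and Sesn2 (0.62 ± 0.26, SE) also lay higher at 24 months without overlap of the groups and did not pass (adjusted p = 0.184 to 0.234). Groups did not overlap upward for 7.49% of all genes. Asns (-0.03 ± 0.31), Trib3 (0.14 ± 0.21), Atf4 (0.10 ± 0.15), Ddit3 (0.13 ± 0.20) and Psph (-0.16 ± 0.25) had overlapping groups. The Phgdh call was lost on deposited TPM (1.40, adjusted p = 0.173), in a fit of only the groups compared (adjusted p = 0.289), and without either of 2 of the 12-month glands or the 24-month gland at 92.9 (adjusted p up to 0.0962).

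In CYP19A1 glands 0 of the 10 genes passed from 12 to 24 months, against 0.336% of all genes. At an unadjusted p under 0.05 there was 1, Atf4, against 17.8% of all genes. Atf4 was 39.5, 28.4 and 34.6 rescaled TPM at 12 months and 44.6, 39.9 and 43.9 at 24 months, a log2 difference of 0.33 ± 0.15 (SE, adjusted p = 0.244). These groups did not overlap, as for 9.42% of all genes that lay higher. Phgdh differed by 0.31 ± 0.34 and Chac1 by 1.20 ± 0.62. The age change of Phgdh in CYP19A1 minus that in Esr1 glands was -1.18 ± 0.48 (SE, adjusted p = 0.905), which did not pass. For that test 0.099% of all genes passed, and Psat1 (-0.92 ± 0.42, adjusted p = 0.948) was the other of the 10 at an unadjusted p under 0.05 (4.92% of all genes). From 12 to 18 months 0 of the 10 genes passed in limma in either model, nor at an unadjusted p under 0.05, against 0% of all genes adjusted and 6.34% and 6.99% unadjusted.

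Averaged over the models, Phgdh (0.90 ± 0.24, SE, adjusted p = 0.0191) and Chac1 (1.40 ± 0.44, adjusted p = 0.0394) rose from 12 to 24 months, 2 of 10 genes against 9.25% of all genes in either direction and 4.44% upward. At an unadjusted p under 0.05 there were 3, against 27.2% of all genes. Chac1 was 2.81, 0.935 and 3.38 rescaled TPM in Esr1 glands of 12 months and 12.8, 9.97 and 4.96 at 24 months. In CYP19A1 glands it was 4.85, 1.43 and 0.771 at 12 months and 8.20, 2.82 and 7.61 at 24 months. The Esr1 groups did not overlap and the CYP19A1 groups did. Without the libraries rich in ribosomal RNA, which leaves 1 CYP19A1 gland at 12 months, Phgdh differed by 1.20 (adjusted p = 0.0143) and Chac1 by 1.44 (adjusted p = 0.121). The Chac1 call was lost in 10 of 19 alternatives and the Phgdh call in 3.

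Other cell types moved with age as well. Of 7 skeletal muscle markers 2 rose, with a median of 2.43 on the log2 scale, and their summed level was 1288 to 15040 rescaled TPM in Esr1 glands of 12 months and 6903 to 23433 at 24 months. In CYP19A1 glands that sum was 337 to 12596 and 12402 to 23588. All 5 B cell markers rose (median 1.64), 2 of 6 milk protein genes fell (median -2.68), and 1 of 7 white adipocyte markers fell (median 0.01). The median of all genes was -0.01. The part of these cell types in the Phgdh and Chac1 results was not tested.

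Between 24 months after 12 months of induction and 30 months after 18 months, Phgdh, Psat1, Ddit4, Sesn2 and Trib3 lay lower in Esr1 glands without overlap of the groups, as did 8.4% of all genes. None of the 10 passed in limma, against 0.119% of all genes, and 4 lay at an unadjusted p under 0.05 (11.1% of all genes). The log2 differences were -1.27 ± 0.34 for Phgdh (adjusted p = 0.0946), -0.90 ± 0.30 for Psat1 (0.201), -0.93 ± 0.40 for Ddit4 (0.377) and -0.61 ± 0.26 for Sesn2 (0.365; SE). Without the 30-month gland rich in ribosomal RNA (50.3%) and the other such libraries, Phgdh passed (-1.51, adjusted p = 0.0306). The summed level of the 7 white adipocyte markers was 3265 to 5536 rescaled TPM at 24 months and 1313 to 2574 at 30 months, and 1 of the 7 fell. Its part in the result was not tested. In CYP19A1 glands 0 of the 10 passed, nor at an unadjusted p under 0.05 (0% and 2.23% of all genes). There Psat1 (-0.39 ± 0.30) and Trib3 (-0.34 ± 0.21) lay lower without overlap, as did 5.23% of all genes.

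The models were compared in glands labelled as long-induced, in uninduced glands and over all matched pairs of groups. After long induction Ddit4 and Phgdh were lower and Psph was higher in CYP19A1 than in Esr1 glands, 3 of 10 genes against 9.83% of all genes. Downward these were 2 against 5.17% of all genes, and upward 1 against 4.67%. Unadjusted, 5 lay under 0.05, against 24.6%. Ddit4 was 2.77, 4.10 and 2.38 rescaled TPM in CYP19A1 and 5.42, 9.11 and 9.32 in Esr1 glands after 6 months. It was 5.14, 3.74 and 4.30 against 21.8, 11.5 and 15.6 after 12 months, and 5.24, 3.47 and 3.63 against 5.97, 10.4 and 7.67 after 18 months. In each of the 3 pairs of groups every CYP19A1 library lay below every Esr1 library. The share of all genes whose groups do not overlap between the models was not computed. The mean log2 difference was -1.19 ± 0.23 (SE, limma adjusted p = 0.000571), a 0.438-fold ratio. It passed in all 25 alternatives run, with values from -1.37 to -1.06. In uninduced glands, as a mean over 12, 18 and 24 months of age, Ddit4 differed by 0.31 ± 0.23 (adjusted p = 0.384). By age the log2 difference was 0.57 at 12 months, 0.82 at 18 months and -0.47 at 24 months. The groups overlapped at each of these ages, and single ages were not tested. The CYP19A1 group of 18 months includes the library at 22.3. No long-induced gland was younger than 24 months, so the uninduced and long-induced means differ in age as well as in induction.

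Psph was 8.78, 7.08 and 8.43 rescaled TPM in CYP19A1 and 6.67, 5.43 and 6.38 in Esr1 glands after 6 months. After 12 months it was 8.11, 7.43 and 9.09 against 3.12, 7.20 and 4.66, and after 18 months 8.56, 7.38 and 9.21 against 6.33, 5.61 and 4.98. The groups did not overlap at any of the 3 durations, and the share of all genes like this was not computed. The mean log2 difference was 0.51 ± 0.14 (SE, adjusted p = 0.0204), and it passed in all 25 alternatives, with adjusted p up to 0.0489. The Phgdh difference of -0.69 ± 0.20 (SE, adjusted p = 0.0224) came from the 24-month groups, at 27.9 ± 8.26 against 62.3 ± 19.1 after 6 months and 32 ± 12.2 against 62.1 ± 18.0 after 12 months (SD, n = 3). At 30 months the means were 25.0 ± 2.37 and 25.3 ± 8.23, and the groups overlapped. Uninduced glands of 24 months, which are not part of this difference, stood at 31.4 ± 11.3 in CYP19A1 against 63.5 ± 25.5 in Esr1 glands. The Phgdh call was lost in 7 of 25 alternatives, among them deposited TPM (adjusted p = 0.249) and leaving out the libraries rich in ribosomal RNA (-0.53, adjusted p = 0.0846). Ddit3 (0.31 ± 0.12, adjusted p = 0.0831) and Sesn2 (-0.30 ± 0.15, adjusted p = 0.200) lay at an unadjusted p under 0.05 only. Ddit3 passed without the libraries rich in ribosomal RNA (0.34, adjusted p = 0.0360).

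Cell type markers differed between the models in the same glands. Of 6 milk protein genes 5 were lower in CYP19A1 glands (median log2 difference -3.80), with sums of 96.3 to 2538 rescaled TPM against 215 to 16619. Of 6 basal markers 3 were lower (median -0.60), of 7 luminal markers 1 was lower (-0.64), and of 5 endothelial markers 3 were higher (0.39). The part of these cell types in the Ddit4, Phgdh and Psph differences was not tested.

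In uninduced glands the models were compared as a mean over 12, 18 and 24 months. In limma 0 of the 10 genes passed, against 16.7% of all genes, and 1 lay at an unadjusted p under 0.05 (30.8% of all genes). This was Atf4, at -0.24 ± 0.09 (SE, adjusted p = 0.0516). Its means were 34.2 ± 5.55 rescaled TPM in CYP19A1 and 42.6 ± 4.52 in Esr1 glands at 12 months, 36.5 ± 5.38 and 45.2 ± 4.40 at 18 months, and 42.8 ± 2.52 and 46.2 ± 8.79 at 24 months (SD, n = 3). The groups overlapped at 18 and 24 months. Leaving out single libraries moved its adjusted p between 0.0209 and 0.152. A mean over ages can hide opposite differences. For Phgdh the log2 difference between uninduced groups was 0.19 at 12 months, 0.36 at 18 months and -0.98 at 24 months. Single ages were not tested between the models.

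Over all 8 matched pairs of groups, Psph (0.27 ± 0.09, SE, adjusted p = 0.0146) and Ddit3 (0.18 ± 0.07, adjusted p = 0.0472) were higher in CYP19A1 glands, 2 of 10 genes against 40.2% of all genes, or 20.7% upward. Unadjusted, 4 lay under 0.05, against 47.8%. Mean rescaled TPM was higher in CYP19A1 glands in 7 of the 8 pairs for Psph and in 6 for Ddit3. On deposited TPM neither passed (Psph 0.12, adjusted p = 0.433; Ddit3 0.02, adjusted p = 0.926). There Phgdh (-0.47, adjusted p = 0.0224) and Atf4 (-0.28, adjusted p = 0.0463) passed instead, both lower in CYP19A1 glands, against -0.29 (0.0514) and -0.11 (0.0901) on rescaled TPM. The Ddit3 call was lost in 30 of 53 alternatives.

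**Figure D3:**
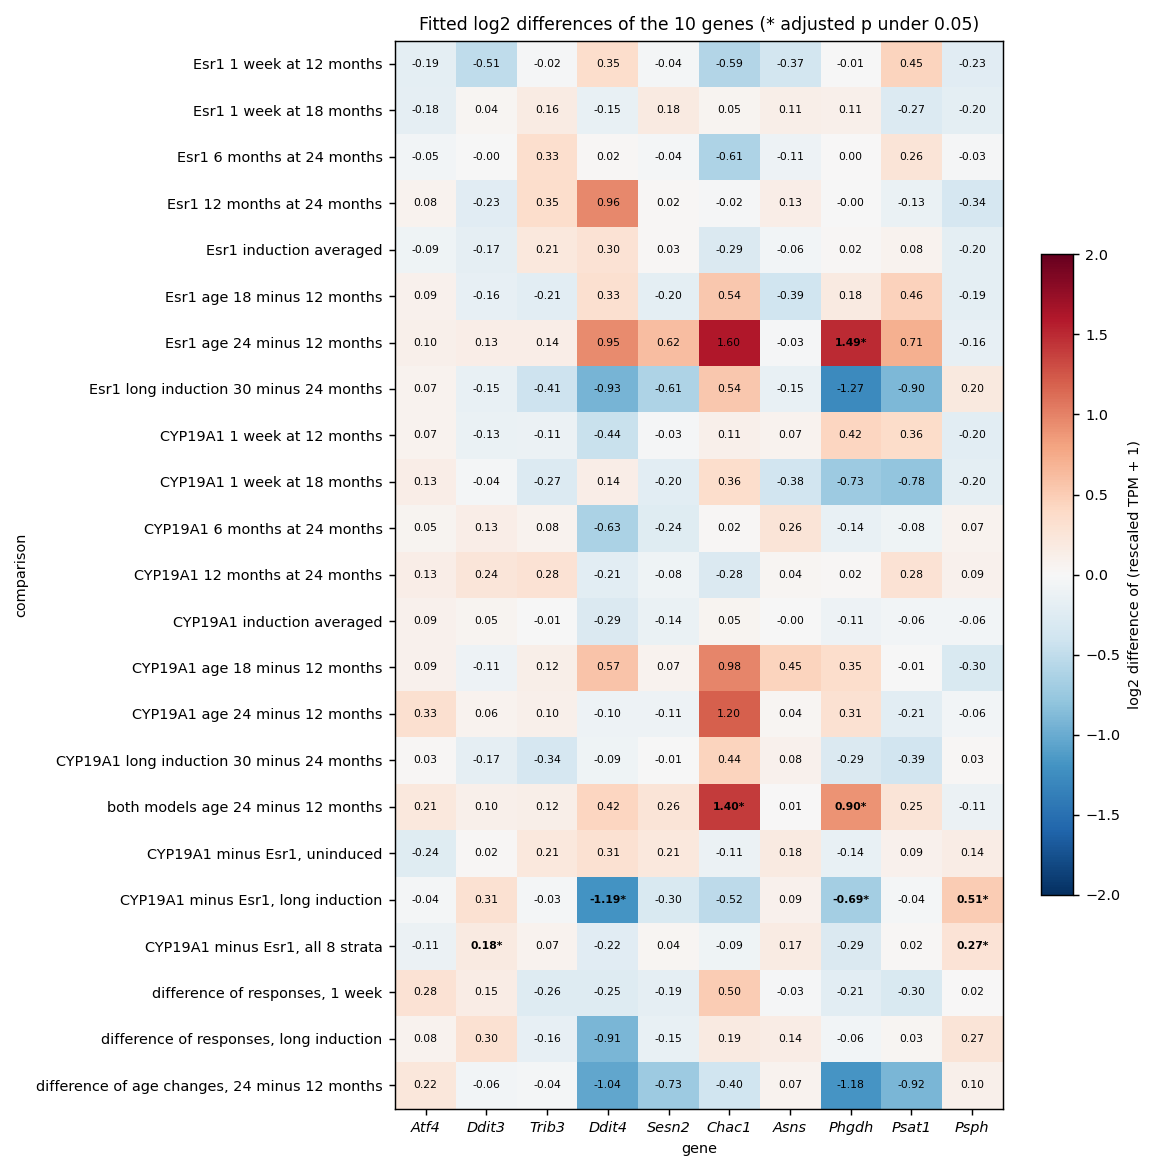
Fitted log2 differences of (rescaled TPM + 1) for the 10 genes (columns) in the 23 comparisons (rows), red for higher and blue for lower, with a star where the limma adjusted p is under 0.05; rows named difference of responses or of age changes are CYP19A1 minus Esr1. Stars stand on Phgdh and Chac1 in the age rows and on Ddit4, Phgdh, Psph and Ddit3 in the rows between models.

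Other genes of the pathways were counted from fixed lists, to be read against the share of all genes that passed in the same comparison. After long induction that share was 5.17% lower and 4.67% higher. In glands labelled as long-induced, 3 of 12 genes of the eIF2 kinases and core response were lower in CYP19A1 than in Esr1 glands and 0 higher: Eif2ak2, the kinase that senses double-stranded RNA (-0.38 ± 0.10, SE, adjusted p = 0.00995), Atf3 (-0.69 ± 0.18, 0.0106) and Cebpb (-0.40 ± 0.13, 0.0388). Of 8 amino acid transporters 1 was lower, Slc7a5, which imports leucine (-1.17 ± 0.32, adjusted p = 0.0157), and of 11 tRNA charging genes 0 passed, the most abundant being Eprs (-0.04 ± 0.08) and Nars (-0.21 ± 0.08). Of 14 further enzymes of serine, glycine, folate and proline metabolism 3 were lower and 0 higher: Gldc of the glycine cleavage system (-0.98 ± 0.28, 0.0225), Gpt2, an alanine aminotransferase (-0.71 ± 0.15, 0.00159), and Pycr1 of proline synthesis (-0.38 ± 0.12, 0.0409). The median differences of these lists were -0.10, -0.23, -0.04 and -0.15, against 0.01 over all genes and -0.04 over the 10 genes. Stc2, a secreted glycoprotein, was higher (1.01 ± 0.20, adjusted p = 0.000925), 1 of 5 tested in the list of secreted and other stress genes. Of 13 unfolded protein response genes 0 passed, the most abundant being Xbp1 (-0.56 ± 0.23, adjusted p = 0.127) and Hspa5 (-0.07 ± 0.12).

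Without induction, where none of the 10 genes and 16.7% of all genes passed, 3 of 12 core genes were lower in CYP19A1 than in Esr1 glands: Eif2ak2 (-0.50 ± 0.10, SE, adjusted p = 0.000591), Atf3 (-0.50 ± 0.18, 0.0497) and Eif2s1, a subunit of eIF2 (-0.34 ± 0.09, 0.0101). Of 11 tRNA charging genes 4 were lower, among them the asparagine and serine enzymes Nars (-0.44 ± 0.08, 0.000165) and Sars (-0.32 ± 0.08, 0.00681). Of the further serine and folate enzymes 2 of 14 were lower, Gpt2 (-0.67 ± 0.15, 0.00202) and Shmt1, which interconverts serine and glycine (-0.56 ± 0.19, 0.0366). Slc1a5, a glutamine transporter, was higher (0.72 ± 0.19, 0.00766), 1 of 8 transporters, as was Stc2 (1.23 ± 0.20, adjusted p = 5.79e-05). All 5 endothelial markers were higher and 3 of 6 proliferation markers lower in the same comparison, and their part was not tested. The list counts above are each in 1 direction and are to be read against a share in 1 direction, not against 16.7%. Of the 20209 genes tested, 3378 passed in either direction and 1831 of these were higher. The share of all genes in 1 direction is therefore smaller than 16.7%.

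Because Ddit4 is also raised by glucocorticoids and by hypoxia, lists of both responses were read beside it. Of 8 glucocorticoid-response genes 3 were lower in CYP19A1 glands labelled as long-induced, and 0 higher: Fkbp5 (-1.03 ± 0.26, SE, adjusted p = 0.00788), Errfi1 (-0.78 ± 0.18, 0.00354) and Tsc22d3 (-0.69 ± 0.23, 0.0465). The list median was -0.59. Their summed level was 185 to 296 rescaled TPM in these CYP19A1 glands and 214 to 681 in the Esr1 glands, so the ranges overlapped. Of 8 hypoxia-response genes 0 passed (median 0.12), the most abundant being Bnip3 (-0.0019 ± 0.19) and Vegfa (0.31 ± 0.14). The part of either response in the Ddit4 difference was not tested.

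With age in uninduced glands of both models, 9.25% of all genes passed. Ppp1r15a, the phosphatase subunit that reverses eIF2 phosphorylation, rose (0.43 ± 0.14, SE, adjusted p = 0.0430) and Eif2ak2 fell (-0.42 ± 0.12, 0.0266), the 2 of 12 core genes that passed. Of the unfolded protein response list 2 of 13 fell, Dnajb9, an endoplasmic reticulum chaperone partner (-0.52 ± 0.11, 0.00569), and Ern1, a stress sensor of that organelle (-0.29 ± 0.09, 0.0477). Sesn1, a relative of Sesn2, rose (0.55 ± 0.17, 0.0350), as did Tsc22d3 (0.85 ± 0.28, 0.0462) and Sgk1 (0.49 ± 0.16, 0.0478) among 8 glucocorticoid-response genes. Of 8 hypoxia-response genes 1, Ankrd37, rose (0.52 ± 0.17, 0.0440). None of the amino acid transporters, tRNA charging genes or further serine and folate enzymes passed in this comparison. In the 8 induction comparisons 0 genes of the core, transporter, tRNA charging, serine and folate, unfolded protein and glucocorticoid lists passed. Of all genes, 0.0148% passed after 12 months in CYP19A1 glands and 0% in each of the others, so these counts tell little about the lists.

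Single libraries were then compared with the mean of their group, which removes model, age and induction. Over 45 pairs of the 10 genes, deviations on the log2 scale were correlated across the 48 libraries, with permutation within groups (100000 resamples) and Benjamini-Hochberg adjustment. Of the 45 correlations 34 were above 0 (median 0.18), and 5 passed, all positive. No share was computed for pairs of other genes, so these counts do not tell whether the 10 genes go together more than others. Phgdh went with Psat1 (r = 0.69, rho = 0.72, permutation p = 1e-05, the smallest the resamples can give, adjusted 0.00045) and with Asns (r = 0.70, rho = 0.71, permutation p = 7e-05, adjusted 0.00158). Asns with Psat1 did not pass (r = 0.41, permutation adjusted p = 0.0772).

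Ddit3 went with Psph (r = 0.72, rho = 0.67, permutation p = 0.00017, adjusted 0.00203) and Ddit4 with Sesn2 (r = 0.68, rho = 0.61, permutation p = 0.00018, adjusted 0.00203). Atf4 passed with Chac1 (r = 0.45, rho = 0.50, permutation p = 0.00441, adjusted 0.0397) and with none of the other 8 genes, where r ran from -0.37 (Ddit4) to 0.31 (Ddit3). Psph did not pass with Phgdh (r = 0.09) or Psat1 (r = 0.30). Among the genes with the response element, r was 0.26 for Asns with Trib3, -0.02 for Asns with Chac1 and -0.16 for Trib3 with Chac1, and none passed. Leaving out 2 libraries per pair gave 0.68, 0.67, 0.63, 0.62 and 0.42 for the 5 pairs in the order given. These were the 2 whose deviations lay farthest from the median deviation of 1 gene of the pair. That gene was the one named first above, except that it was Asns for Phgdh with Asns. Without libraries rich in ribosomal RNA the first 4 pairs passed with r from 0.60 to 0.70, and Atf4 with Chac1 did not (r = 0.46, permutation adjusted p = 0.0678). On deposited TPM, 32 of 45 pairs passed.

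**Figure D4:**
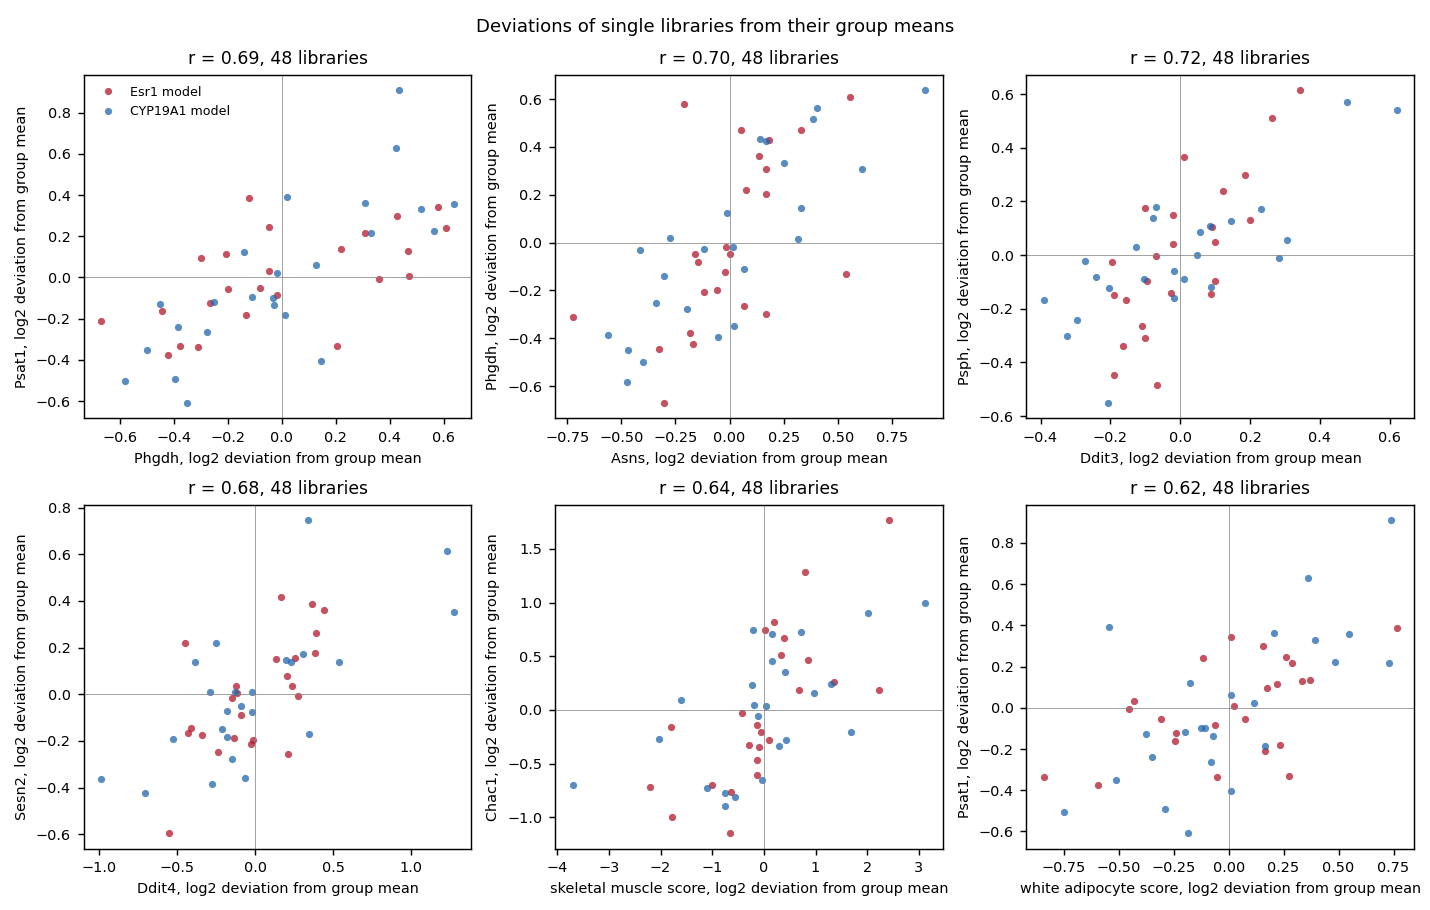
Deviations of the 48 libraries from their group means, in log2 units on both axes, for 4 pairs of genes and for 2 genes against the mean of a cell type's markers; points are libraries coloured by model. The clouds rise from lower left to upper right, with r from 0.62 to 0.72.

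The same deviations were compared with those of 13 cell type marker scores, the mean log2(rescaled TPM + 1) of each marker list. Of 130 relations 13 passed, and the share for other genes was not computed. Chac1 went with the skeletal muscle score (r = 0.64, rho = 0.70, permutation p = 2e-05, adjusted 0.0013) and against the basal score (r = -0.74, rho = -0.76, permutation p = 1e-05, adjusted 0.0013), and both held without the libraries rich in ribosomal RNA (r = 0.68 and -0.73). It also went against the luminal (r = -0.60), proliferation (-0.53) and T cell scores (-0.49). Without the libraries rich in ribosomal RNA the luminal relation passed (-0.76), and those with the proliferation (permutation adjusted p = 0.101) and T cell scores (0.204) did not. The T cell relation also did not pass on deposited TPM (permutation adjusted p = 0.0894). The white adipocyte score went with Psat1 (r = 0.62), Ddit3 (0.55), Sesn2 (0.52), Asns (0.49) and Phgdh (0.47). None of these 5 passed without the libraries rich in ribosomal RNA, where r was 0.57, 0.52, 0.35, 0.24 and 0.21 in the same order. The remaining relations, Ddit3 with the luminal score (-0.58) and Atf4 with the T cell (-0.39) and muscle scores (0.41), changed sign on deposited TPM.

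Across the 16 group means, the transcripts most like those of the set were listed as a description. For Ddit4 they were Arl4d (r = 0.91) and Fkbp5 (0.88), for Phgdh Unc79 and Dctn3 (both 0.95), and for Chac1 the muscle transcripts Klhl38 (0.94) and Abra (0.92). For Atf4 they were Ubxn6 (0.95) and Kcmf1 (0.94), for Psat1 Hebp1 and Tbcd (both 0.92), for Sesn2 Clic4 (0.92) and Mcub (0.90), and for Psph Kptn (0.90) and G3bp2 (0.89). For Ddit3 they were Fam229b (0.90) and Mdh1 (0.86), for Asns Tmem159 (0.88) and Lpin1 (0.87), and for Trib3 Fstl3 (0.90) and Tpst2 (0.89). Within the set, group means of Phgdh were most like those of Sesn2 (r = 0.81) and those of Chac1 like those of Atf4 (0.74). The 16 means share the ages and the models.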

How the data were processed

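Per the labels' protocols, total RNA went through ribosomal RNA depletion and a stranded kit, and single 75 bp reads were taken, with 50 M stated as the minimum. STAR 2.7.9a, RSEM 1.3.1 and the build mm10 are named in the submitters' processing notes. The annotation release is not given in the sources used here. The authors deposited TPM per gene, which sum to the same total in every library and keep no depth, so no counting interval can be given.

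TPM were divided by a median-of-ratios factor per library. Ribosomal share is the sum of the rows CT010467.1, AY036118 and Lars2, the last a protein-coding gene counted with them. Genes with at least 1 deposited TPM in at least 3 libraries were fitted as log2(rescaled TPM + 1) with limma 3.58.1 in R 4.3.3 (trend, all 48 libraries, 1 mean per group). Correlations used permutation in numpy 2.4.6. On simulated data with 200 changed genes of 20209, a log2 change of 1.5 was recovered for 87% of genes in the Esr1 age comparison. In the long-induction comparison between models it was 96%. The changed genes were drawn only from the more abundant ones, with normal noise, and changes under 1.5 were not simulated. The percentages therefore do not cover scarce genes or smaller differences.

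The alternatives were deposited TPM, rescaling to the protein-coding total, a pseudocount of 0.1, no filter, only the groups compared, the replicate number as a block, leaving out the 9 libraries with over 10% ribosomal RNA, and leaving out each library in turn. All 10 genes are named, and of each other list up to 4 genes that passed with the largest change, or the 2 most abundant where none passed. For each of the 10, the 2 protein-coding genes with the highest correlation of group means are named. The genes and lists were chosen with earlier results of these data known. No 2 libraries shared more than 5.56% of equal values.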

Additional observations from a re-analysis of the deposited data

How the results depend on the processing

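Of 160 alternatives other than leaving out libraries, 149 left the number of genes or correlations that passed within 1.5 times. A number that was 0 and stayed 0 counts among the 149, and 0 of the 10 genes passed in 19 of the 23 comparisons. The 149 are therefore not a measure of stability. From 12 to 24 months in Esr1 glands the number of the 10 genes that passed fell from 1 to 0 on deposited TPM and with only the groups compared. Averaged over models it went from 2 to 1 without a filter, to 0 with only the groups compared and to 1 without libraries rich in ribosomal RNA. From 24 to 30 months in long-induced Esr1 glands it rose from 0 to 1 (Phgdh) without those libraries, and over all pairs of groups it went from 2 to 1 without a filter. On deposited TPM it stayed at 2 over all pairs with other genes, Phgdh and Atf4 in place of Psph and Ddit3. The cause of these changes was not tested. Leaving out single libraries gave 0 to 1 in the Esr1 age comparison, 0 to 2 averaged over models, 2 to 3 between models after long induction, 0 to 1 without induction, 1 to 3 over all pairs, and 0 in the other 18 of 23 comparisons. On deposited TPM 32 pairs and 66 marker relations passed instead of 5 and 13, and 4 marker relations without libraries rich in ribosomal RNA. On deposited TPM the relation of Ddit3 to the luminal score reversed to 0.28, that of Atf4 to the muscle score to -0.23 and that of Atf4 to the T cell score to 0.52.

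Among all genes, the split of calls moved with the scaling. Higher calls were 1831 of 3378 between models without induction, 198 of 596 on deposited TPM and 3466 of 4006 with the protein-coding total. Over all pairs they were 4193 of 8121, 1049 of 4922 and 5897 of 8219. After long induction they were 943 of 1987, 601 of 839 and 939 of 1550. With age averaged over models they were 898 of 1870, 832 of 946 and 703 of 1778, in Esr1 glands 167 of 366, 66 of 116 and 106 of 254, and in CYP19A1 glands 35 of 68, 844 of 857 and 38 of 76. Deposited TPM shifted the median of all genes by up to -0.36 (Esr1 glands, 30 against 24 months).

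With the replicate number as a block, Atf4 passed between models without induction (adjusted p = 0.0487), 1 gene instead of 0, and the other comparisons kept their number. Same-numbered libraries did not deviate together in most comparisons (r from -0.44 to 0.36). In the CYP19A1 comparison of 30 with 24 months every r was over 0.1 (0.11 to 0.25) and 3 of 3 libraries matched their own number best, and the block left 0 of the 10 genes passing there. Comparisons with the 1-week CYP19A1 glands of 12 months gave no value without libraries rich in ribosomal RNA, and the fit of only the groups compared does not differ for all pairs. TPM keep no depth, so what depth limits cannot be said.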
